A study of Mus musculus with 39 samples.

Results

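Polycomb repressive complex 1 (PRC1) is described here through 9 of its genes in mouse cerebellar granule cells: the reader genes Cbx2, Cbx6, Cbx7 and Cbx8, the ubiquitin ligase genes Ring1 and Rnf2, their partner genes Bmi1 and Pcgf2, and the polyhomeotic gene Phc1. The 9 genes were chosen by name from the 24100 genes of the deposited table, and all 9 were measured in every library and passed the filter on low counts in every comparison. The rule uses no measured value, though earlier results of these data were known when the genes were chosen.

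The study followed cerebellar granule cells, small excitatory neurons that multiply after birth, through 39 libraries of polyadenylated RNA from mice, in 13 groups. Translating ribosome affinity purification (TRAP) pulls down ribosomes through an EGFP-tagged protein L10a, and with them the RNA they hold. The Math1 TRAP group came from isolated granule cell progenitors of Tg(Atoh1-Egfp-L10a) mice at postnatal day 7 (P7, 4 libraries), and the Neurod1 TRAP groups from cerebellar lysates of Tg(NeuroD1-Egfp-L10a) mice at P7, P12 and P21 (5 libraries each). Each of these ages has 1 input library of total cerebellar RNA. Cultures of C57Bl/6J granule cell progenitors taken from P6 to P7 mice gave 2 libraries each of freshly isolated cells (day in vitro 0, DIV0), of DIV2 and DIV5 cultures with the solvent DMSO, and of DIV5 cultures with 100 nM UNC1999. UNC1999 inhibits EZH2 and EZH1, which place the repressive mark H3K27me3. Cultures from P7 mice at DIV5, all carrying Atoh1-Cre, had either unaltered Ezh1 (wt, 5 libraries) or the labelled conditional knockout Ezh1(cKO/cKO) (cKO, 4 libraries), described in the protocol as Ezh1(fl/fl). Atoh1-Cre acts in cells that pass through Atoh1 expression, so other cells of a culture keep the gene. TRAP reads the tagged cells of a line, so a change in the Neurod1 series can follow the mixture of cells under the Neurod1 promoter at each age.

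PRC1 places ubiquitin on histone H2A at silenced genes. Its ligase is a RING1 protein (Ring1 or Rnf2, also called Ring1b) paired with a PCGF protein. With PCGF2 (Mel18) or PCGF4 (Bmi1) it assembles the canonical complex, which also holds a CBX protein that binds H3K27me3 and a polyhomeotic protein that can polymerise. The CBX subunits are alternatives to each other, so the RNA levels of their genes bear on which reader is available to the complex. CBX7 is the reader known from embryonic stem cells, and CBX2 and CBX8 are known from differentiating cells.

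Levels below are counts scaled to 1e6 per library (CPM) scaled by TMM factors over all 39 libraries, with the SD over libraries. Log2 fold changes are from edgeR's quasi-likelihood test, with their SE and a p adjusted over all genes tested, and a gene is called at an adjusted p under 0.05. Total counts per library, in units of 1e6, ran from 12.08 to 38.55. The labels do not state whether replicates are separate animals or cultures, so the p-values measure the spread between libraries, which may be technical. The summed level of 10 dividing-cell markers was 3554 to 4909 CPM in the Math1 TRAP libraries, 1350 to 1710 CPM at Neurod1 P7 and 84.3 to 93.9 CPM at Neurod1 P21. The 8 mature granule cell markers summed to 6283 to 7135 CPM at Neurod1 P7 and 17050 to 18690 CPM at P21. The 8 Purkinje cell markers, from another cell type, summed to 508 to 613 CPM at Neurod1 P7 and 1098 to 1394 CPM at P21, against 2191 to 5409 CPM in the inputs. In the cultures, the 12 vascular and meningeal markers summed to 952 to 971 CPM at DIV0 and 13450 to 15210 CPM at DIV5 in DMSO, but single genes of the list went both ways: from DIV0 to DIV2 3 were called higher and 8 lower, and from DIV0 to DIV5 7 higher and 4 lower. The 10 microglia markers summed to 97.3 to 100.3 CPM at DIV0 and 720 to 744 CPM at DIV5. The 10 dividing-cell markers summed to 3506 to 3575 CPM at DIV0, 202 to 272 CPM at DIV2 and 347 to 351 CPM at DIV5 in DMSO. The 8 mature granule cell markers summed to 3096 to 3148 CPM at DIV0, 5351 CPM at DIV2 and 3542 to 3553 CPM at DIV5 in DMSO. From DIV0 to DIV5, 6 of these 8 were called higher and 2 lower. The 11 Bergmann glia and astrocyte markers summed to 893 to 897 CPM at DIV0 and 2514 to 2521 CPM at DIV5, with 8 called higher and 3 lower. Among the marker genes measured, Hbb-bs was at 0 in both DMSO libraries of DIV5 and Atoh1 in the input of P21.

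The genes lie partly in clusters. Cbx6 (GRCm38 chr15:79823898-79834333, minus strand) and Cbx7 (chr15:79915804-79971143, minus strand) lie within an interval of 147246 bases that also holds Npcd and Apobec3. Cbx2 (chr11:119023019-119031275, plus strand) and Cbx8 (chr11:119036303-119040913, minus strand) lie within 17895 bases. Rnf2 (chr1:151469398-151500991), Bmi1 (chr2:18677018-18686629), Phc1 (chr6:122317731-122340227), Pcgf2 (chr11:97688821-97702434) and Ring1 (chr17:34020792-34024680) lie elsewhere.

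The bases just before the annotated starts of 4 members are printed because these members part ways in the results: Cbx6, Cbx7 and Cbx8 rose in the maturing Neurod1 TRAP series, while Phc1 fell throughout. Each window holds the 250 bases before the start given by RefSeq (GRCm38.p6), read on the gene's own strand. A window was found for 8 of the 9 members, all but Cbx2. Capitals mark the letters CAGCTG and CACGTG, forms of the E-box letters CANNTG that helix-loop-helix factors are known to bind. Which factors bind either form here was not tested. These forms were chosen after the sequences had been read. Both read the same on either strand. No match to GGCGGGAA, letters known from E2F sites, was found on either strand in these 8 windows.
Cbx6, chr15:79834334-79834583, minus strand: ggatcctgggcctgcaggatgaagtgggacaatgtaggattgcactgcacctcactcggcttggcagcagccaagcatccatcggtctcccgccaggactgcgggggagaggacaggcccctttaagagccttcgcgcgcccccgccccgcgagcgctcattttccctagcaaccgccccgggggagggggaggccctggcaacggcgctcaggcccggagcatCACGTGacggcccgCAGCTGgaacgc
Cbx7, chr15:79932647-79932896, minus strand: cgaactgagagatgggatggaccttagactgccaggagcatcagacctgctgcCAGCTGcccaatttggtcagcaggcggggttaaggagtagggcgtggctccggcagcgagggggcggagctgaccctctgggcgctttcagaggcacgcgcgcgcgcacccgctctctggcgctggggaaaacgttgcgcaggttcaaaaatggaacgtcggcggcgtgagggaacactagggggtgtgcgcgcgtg
Cbx8, chr11:119040914-119041163, minus strand: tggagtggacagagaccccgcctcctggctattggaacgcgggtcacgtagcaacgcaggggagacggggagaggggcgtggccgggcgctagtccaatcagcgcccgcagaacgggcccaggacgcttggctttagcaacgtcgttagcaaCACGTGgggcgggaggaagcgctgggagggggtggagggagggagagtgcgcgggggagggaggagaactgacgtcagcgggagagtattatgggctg
Phc1, chr6:122340228-122340477, minus strand: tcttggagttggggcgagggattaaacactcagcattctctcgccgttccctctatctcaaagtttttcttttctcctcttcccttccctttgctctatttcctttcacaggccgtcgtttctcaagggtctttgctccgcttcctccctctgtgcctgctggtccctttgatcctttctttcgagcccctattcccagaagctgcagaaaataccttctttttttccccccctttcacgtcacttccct

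The Cbx6 window holds both E-box forms, 26 and 12 bases before the start counted from the first base of each match. Cbx7 has a CAGCTG 197 bases before its start and Cbx8 a CACGTG 98 bases before its start, whereas Phc1 has neither. The letters do not sort the members by direction: the window of Pcgf2, lower at P21, holds both forms and that of Bmi1, also lower, holds CACGTG. Of 32851 RefSeq promoter windows of this length, 13% hold CAGCTG, 6% hold CACGTG, 66.2% hold CANNTG and 1.9% hold GGCGGGAA. Of these, only CANNTG is common. CAGCTG was found in the windows of Cbx6, Cbx7, Pcgf2 and Ring1, and CACGTG in those of Bmi1, Cbx6, Cbx8 and Pcgf2. The letters were chosen after these windows had been read, and the members were not tested against all windows. The windows of Cbx6, Cbx7 and Cbx8 hold 20, 23 and 22 CG dinucleotides, more than 82.1%, 86.7% and 85.2% of all windows, where the median is 6. The Phc1 window holds 8. The starts used for Cbx7 and Pcgf2 lie inside the gene spans given above, so each of these windows is upstream of only 1 annotated start.

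The Neurod1 TRAP series shows how the readers change as granule cells mature in the animal. Cbx7 rose 18.1-fold from P7 to P21, Cbx6 5.0-fold and Cbx8 1.73-fold, while Cbx2 was 4.91-fold lower at P21. In bulk RNA, a fall could come from fewer cells with the RNA or from less RNA per cell, and these cannot be told apart. Of the 9 genes, 3 were higher at P21 and 5 lower, where 38.9% of 14759 genes tested were called higher and 42.5% lower, so a call is common in this comparison. The median log2 fold change of the 9 was -0.38, against -0.05 over all genes tested.

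Cbx7, the reader with the largest change among the members, was at 3.14, 4.24, 3.08, 3.19 and 3.88 CPM in the Neurod1 TRAP libraries of P7. It was at 11.3, 12.08, 11.06, 12.14 and 11.08 CPM at P12 and at 64.0, 62.9, 65.5, 69.1 and 68.4 CPM at P21. The groups of the 3 ages did not overlap. The low P7 values rest on 72 to 103 counts per library. The log2 fold change was 1.68 ± 0.09 from P7 to P12 (adjusted p = 5.73e-13) and 2.50 ± 0.08 from P12 to P21 (adjusted p = 1.77e-16). The total from P7 to P21 was 4.18 ± 0.09 (adjusted p = 4.67e-20).

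Cbx6, a reader of the same canonical complex, was at 234, 201, 198, 180 and 188 CPM at P7. It was at 622, 579, 595, 646 and 677 CPM at P12 and at 1041, 1115, 1008, 1017 and 1032 CPM at P21. All 5 libraries of each age lay above all those of the age before. The log2 fold change was 1.60 ± 0.07 from P7 to P12 (adjusted p = 5.71e-14) and 0.72 ± 0.07 from P12 to P21 (adjusted p = 8.69e-09). Whether the steps of the 2 intervals differ was not tested for any gene. Cbx6 shares 563 exon bases on the same strand with Npcd, 5.307% of its exon bases, so part of its counts could belong to either gene. The sum of both genes rose from 267 to 344 CPM at P7 to 1462 to 1650 CPM at P21, with Npcd at 29.4% to 39.8% of it in the P7 and P21 libraries.

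Cbx2 moved the other way. It was at 31.4, 33.3, 32.8, 35.8 and 33.4 CPM at P7, at 9.97, 11.4, 15.03, 13.1 and 12.6 CPM at P12, and at 7.39, 5.80, 8.04, 7.72 and 6.35 CPM at P21. The 3 ages did not overlap. The log2 fold change was -1.45 ± 0.10 in the earlier interval (adjusted p = 7.17e-11) and -0.84 ± 0.11 in the later one (adjusted p = 7.79e-07). The dividing-cell markers fell over the same ages, all 10 of 10 called lower from P7 to P21, and their part in the fall of Cbx2 was not tested. Cbx8 rose by less, from 18.8 ± 2.0 CPM at P7 to 25.01 ± 0.78 CPM at P12 and 33.9 ± 2.7 CPM at P21 (SD, n = 5 each). Its changes in the 2 intervals were 0.37 ± 0.09 (adjusted p = 8.64e-04) and 0.42 ± 0.09 (adjusted p = 3.00e-04).

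**Figure D1:**
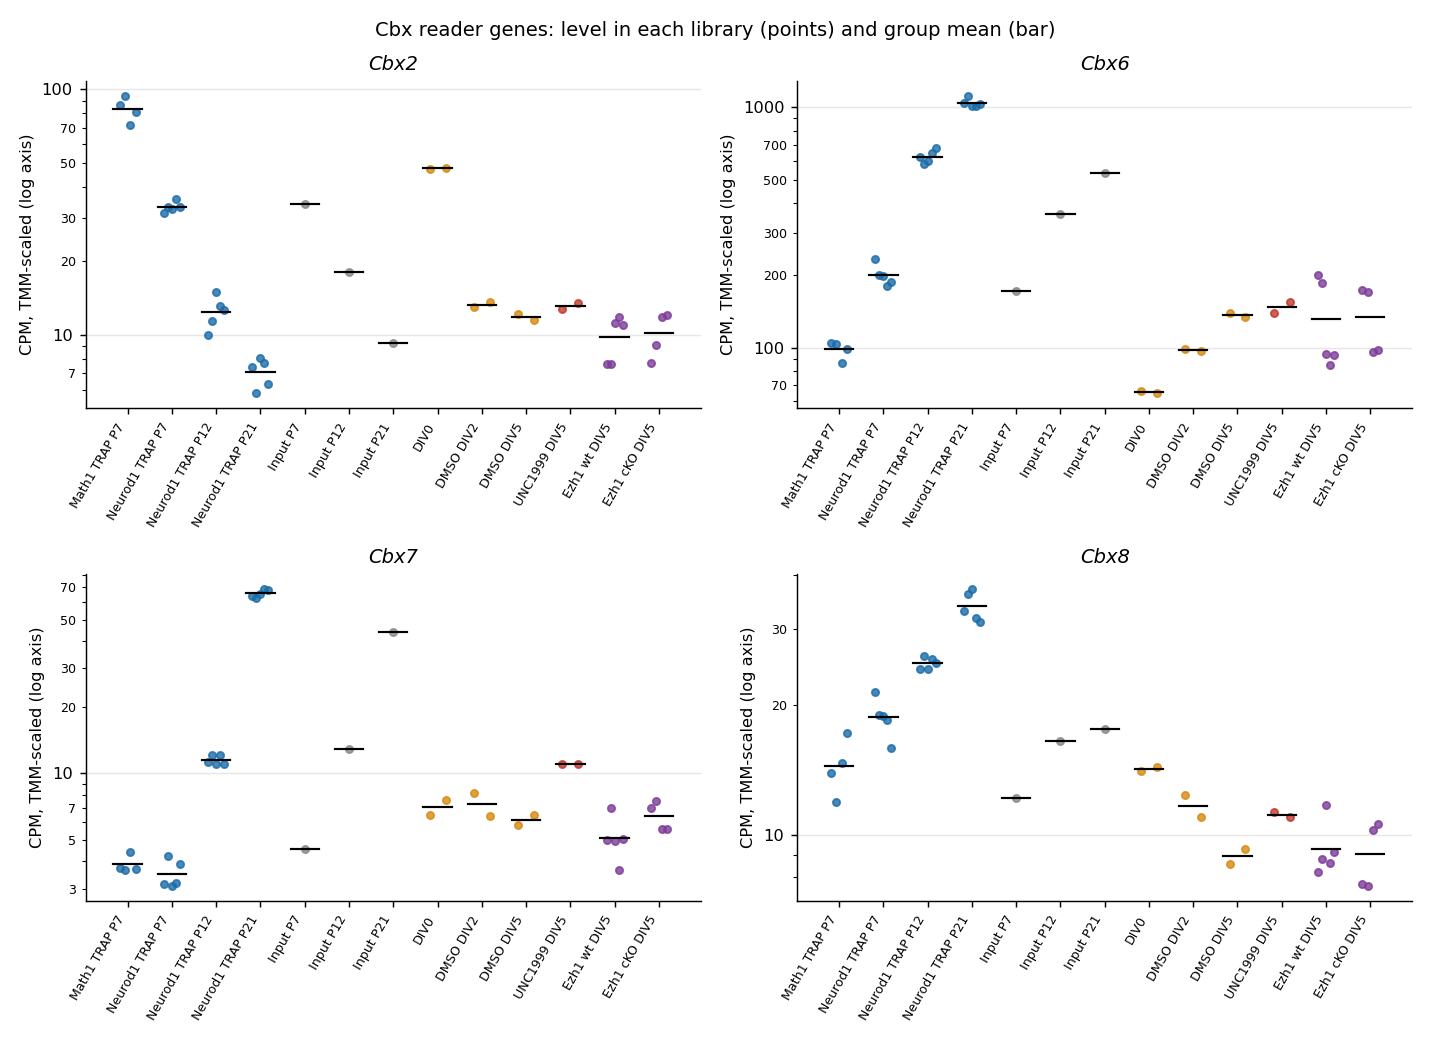
Level of Cbx2, Cbx6, Cbx7 and Cbx8 in each library, in TMM-scaled CPM on a log axis, for the 13 groups. Points are libraries and bars are group means. In the Neurod1 TRAP libraries Cbx7 climbs from 3.08 to 4.24 CPM at P7 to 62.9 to 69.1 CPM at P21 while Cbx2 drops from 31.4 to 35.8 CPM to 5.80 to 8.04 CPM.

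Phc1 was 3.10-fold lower and Rnf2 2.29-fold lower at P21 than at P7, both larger factors than that of Cbx8. Phc1, whose protein polymerises through its SAM domain, fell from 93.7 ± 2.5 CPM at P7 to 61.3 ± 1.7 CPM at P12 and 31.5 ± 1.6 CPM at P21, a log2 fold change of -1.63 ± 0.06 overall (adjusted p = 8.81e-17). Rnf2 fell from 131 ± 5 CPM to 59.4 ± 2.4 CPM, or -1.198 ± 0.049 (adjusted p = 8.81e-16), with -0.45 ± 0.05 before P12 and -0.75 ± 0.05 after. Ring1, its paralog, had 25.35 ± 1.45 CPM at P7 and 28.95 ± 4.40 CPM at P21 and did not pass the test (0.13 ± 0.11, adjusted p = 0.277, 95% interval -0.10 to 0.37). Its value turned slightly negative, -0.04, with scaling by library size only, and it was called without P21 replicate 1 (0.25, adjusted p = 0.0295). From P7 to P12 it was at -0.25 ± 0.11 (adjusted p = 0.0583). Ring1 went from 21.9 ± 4.0 CPM at P12 up to P21 (0.38 ± 0.11, adjusted p = 0.00550), and lost that call with scaling by library size only (0.23, adjusted p = 0.0742). At P12 the 5 libraries spread from 17.9 to 26.9 CPM and overlapped both other ages.

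The PCGF genes, which set the type of complex, fell slightly. Bmi1 went from 194 ± 11 CPM at P7 to 177 ± 4 CPM at P12 and 148 ± 8 CPM at P21, a log2 fold change of -0.45 ± 0.06 (adjusted p = 4.48e-07). Pcgf2 went from 49.8 ± 3.2 CPM to 39.8 ± 6.2 CPM (-0.38 ± 0.11, adjusted p = 0.00221), and its P21 libraries, at 34.8 to 47.7 CPM, overlapped those of P7 at 46.9 to 55.1 CPM. Neither interval on its own passed for Pcgf2, though the later one (-0.24 ± 0.11, adjusted p = 0.0554) did under several alternatives. The call of Bmi1 from P7 to P12 (-0.17 ± 0.06, adjusted p = 0.0141) was lost with no filter on low counts (-0.13, adjusted p = 0.0693). From P7 to P12, 3 members were higher and 4 lower against 31.5% and 36.7% of all genes, and from P12 to P21 it was 4 higher and 4 lower against 32.4% and 32.7%. Of all genes called from P12 to P21, 49.81% were higher with TMM and 35.66% with scaling by library size only. These 3 comparisons share libraries.

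Levels can be compared between genes only per transcript length. Over Cbx2, Cbx6, Cbx7 and Cbx8, the share of each in their summed CPM per kb of the longest coding transcript was taken in every library. Cbx2 held 49.6% ± 2.1 of the sum in Math1 TRAP (SD, n = 4), 17.8% ± 2.0 at Neurod1 P7 and 0.885% ± 0.140 at P21. Cbx6 held 38.5% ± 0.7 in Math1 TRAP, 69.5% ± 2.1 at Neurod1 P7 and 85.35% ± 0.74 at P21. Cbx7 went from 2.10% ± 0.36 at Neurod1 P7 to 9.27% ± 0.61 at P21, which put it above Cbx8 at 4.50% ± 0.34. Only these 4 readers enter the sum, so the shares are not shares of all CBX RNA. Cbx6 was the largest share in the Neurod1 TRAP groups at P7, P12 and P21, and Cbx7 was under 10% of the sum in every TRAP library other than inputs. With union exon length in place of the longest transcript the Cbx6 share was 58.2% ± 2.4 at Neurod1 P7 and 82.35% ± 0.86 at P21, where the libraries' shares of Cbx7 (8.54% ± 0.56) and Cbx8 (7.72% ± 0.56) overlapped. In Math1 TRAP the share of Cbx2 was the largest by either length.

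**Figure D2:**
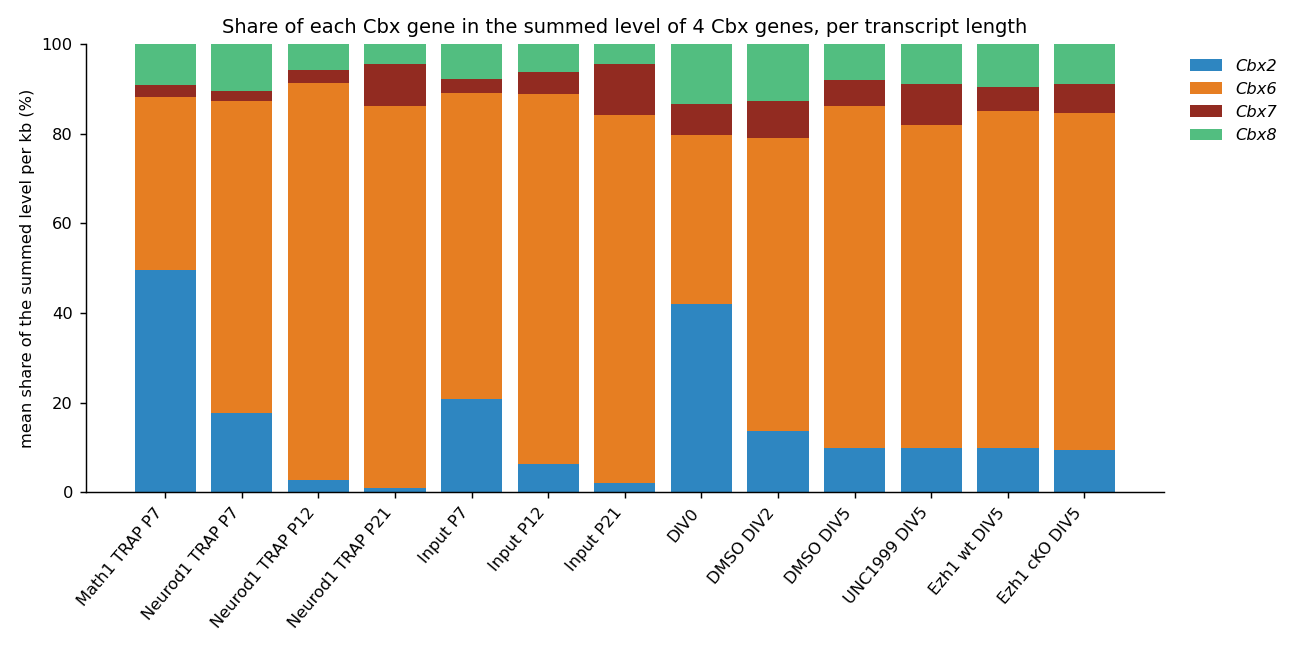
Mean share of each of 4 Cbx genes in their summed level per kb of the longest coding transcript, stacked to 100% for each of the 13 groups. Cbx2 takes 49.6% in Math1 TRAP and 0.885% at Neurod1 P21, where Cbx6 takes 85.35%.

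Ring1 made up 23.4% ± 0.7 of the per-length sum of Ring1 and Rnf2 at Neurod1 P7 and 43.2% ± 4.0 at P21, and the groups did not overlap. Bmi1 made up 72.9% ± 1.2 of the per-length sum of Bmi1 and Pcgf2 at P7 and 72.0% ± 3.5 at P21, and these groups overlapped.

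Progenitors and Neurod1 cells were compared at the same age. The Math1 group came from isolated cells and the Neurod1 group from lysates, so the line, the cells and the preparation cannot be told apart. Cbx2 was lower in Neurod1 TRAP, at 31.4 to 35.8 CPM against 71.97 to 94.1 CPM in the Math1 libraries, a log2 fold change of -1.35 ± 0.10 (adjusted p = 2.28e-10). Cbx6 was at 180 to 234 CPM in Neurod1 TRAP and at 86.5 to 105 CPM in Math1 TRAP, higher by 1.00 ± 0.08 in log2 (adjusted p = 1.87e-10). The groups of both genes did not overlap. In all, 2 members were called higher in Neurod1 TRAP and 3 lower, against 36.5% and 35.8% of all genes.

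Among the other members, Phc1 was lower in Neurod1 TRAP (-0.50 ± 0.06, adjusted p = 1.57e-07), as was Ring1 (-0.45 ± 0.12, adjusted p = 0.00209), which was at 32.2 to 35.5 CPM in Math1 and 23.8 to 27.6 CPM in Neurod1 libraries. Cbx8 was higher (0.36 ± 0.10, adjusted p = 0.00246), at 15.9 to 21.5 CPM against 11.9 to 17.2 CPM, with overlap. Cbx7 was low in both, at 3.65 to 4.40 CPM in Math1 and 3.08 to 4.24 CPM in Neurod1 libraries (-0.17 ± 0.10, adjusted p = 0.163). Rnf2, Bmi1 and Pcgf2 were not called. The Math1 libraries fall into replicates 1 and 2 and replicates 3 and 4. Pcgf2 was at 38.2 and 41.6 CPM in the former and 51.8 and 58.2 CPM in the latter, and its change was 0.29 (adjusted p = 0.0306) against replicates 1 and 2 alone and -0.16 (adjusted p = 0.235) against 3 and 4 alone. Cbx8 lost its call against replicates 3 and 4 alone (0.22, adjusted p = 0.0746), and Bmi1 was called against 1 and 2 alone (0.24, adjusted p = 0.00350).

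Total cerebellar RNA moved with the TRAP RNA for the readers. In the single inputs Cbx7 was at 4.55, 12.9 and 43.8 CPM at P7, P12 and P21, and Cbx2 at 34.2, 17.99 and 9.31 CPM. With age as a factor, 6 of the 9 members were higher in TRAP than in input and 2 lower, against 36.6% and 41.2% of 15479 genes. Of all genes called here, 47.06% were higher with TMM and 25.61% with scaling by library size only. Cbx8 was higher (0.68 ± 0.08, adjusted p = 6.19e-07), as were Ring1 (0.77 ± 0.12, adjusted p = 1.28e-05) and Cbx6 (0.60 ± 0.10, adjusted p = 2.47e-05). Cbx2 (-0.36 ± 0.11, adjusted p = 0.00580) and Phc1 (-0.51 ± 0.07, adjusted p = 1.52e-06) were lower. The call of Cbx2 was lost without the input of P12 (-0.20, adjusted p = 0.196). Cbx7 was not called (-0.01 ± 0.12, adjusted p = 0.964, 95% interval of the fold 0.835 to 1.19), but was called lower without the input of P21 (-0.29, adjusted p = 0.0147) and with scaling by library size only (-0.41, adjusted p = 0.00255). Scaling by library size only moved the median of all genes in this comparison from -0.07 to -0.46. Under it Bmi1 (0.39 ± 0.06 with TMM) came to -0.002, Pcgf2 (0.26 ± 0.09) to -0.13 and Rnf2 (0.41 ± 0.05) to 0.01, so that none of the 3 was called and the sign of Bmi1 and Pcgf2 turned. Pcgf2 also lost its call without the input of P21 (0.20, adjusted p = 0.106). Each age has 1 input, so the inputs carry no replicate check of their own.

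In culture the readers went a different way. Cbx2 fell and Cbx6 rose, as in the Neurod1 series, but Cbx7 did not rise. Cbx7 was at 6.49 and 7.55 CPM at DIV0, 8.12 and 6.44 CPM at DIV2 and 5.82 and 6.48 CPM at DIV5 in DMSO, so that DIV2 overlapped the other days and DIV0 lay just above DIV5. Its log2 fold change from DIV0 to DIV5 was -0.23 ± 0.15 (adjusted p = 0.175), and the 95% interval of the fold was 0.685 to 1.07, which excludes the rise seen between P7 and P21. At DIV0, in total RNA, it lay above the ribosome-bound level of 3.65 to 4.40 CPM in Math1 TRAP, a difference that was not tested.

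Cbx2 fell from 47.4 and 48.0 CPM at DIV0 to 12.99 and 13.6 CPM at DIV2 and 12.14 and 11.5 CPM at DIV5, so nearly all of its change (-2.04 ± 0.09 in log2, adjusted p = 2.02e-11) came in the earlier interval (-1.78 ± 0.08, adjusted p = 1.03e-10). The call from DIV2 to DIV5 (-0.27 ± 0.10, adjusted p = 0.0237) held in 1 of 10 alternatives, over which the value ran from -0.31 to -0.12 and the adjusted p from 0.0314 to 0.286. Cbx6 rose from 66.2 and 64.6 CPM to 98.4 and 96.6 CPM and then to 140 and 135 CPM, or 1.04 ± 0.06 in all (adjusted p = 6.10e-10). Cbx8 went from 14.1 and 14.4 CPM to 8.59 and 9.29 CPM (-0.70 ± 0.11, adjusted p = 4.18e-05).

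Among the other subunits, Bmi1 fell most, from 189 and 185 CPM at DIV0 to 142 and 129 CPM at DIV2 and 71.0 and 66.9 CPM at DIV5. Its log2 fold change was -1.47 ± 0.07 (adjusted p = 5.92e-11). Pcgf2 rose from 72.7 and 76.7 CPM to 115 and 105 CPM at DIV2 (0.62 ± 0.07, adjusted p = 1.21e-06) and fell back to 85.7 and 92.1 CPM at DIV5 (-0.40 ± 0.07, adjusted p = 1.06e-04). Over DIV0 to DIV5 it was 0.22 ± 0.07 (adjusted p = 0.00928), a call lost without DIV0 replicate 1 (0.18, adjusted p = 0.0891) or DMSO DIV5 replicate 2 (0.16, adjusted p = 0.0977). The Bmi1 share of the per-length sum of Bmi1 and Pcgf2 dropped from 63.4% ± 1.2 to 34.9% ± 2.1 (SD, n = 2 each), against 72.9% ± 1.2 and 72.0% ± 3.5 at P7 and P21.

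Phc1 (-0.98 ± 0.06, adjusted p = 7.74e-10) and Rnf2 (-0.99 ± 0.06, adjusted p = 2.25e-09) fell in culture to 0.508 and 0.502 of the DIV0 level, and Ring1 rose (0.44 ± 0.10, adjusted p = 0.00137). For DIV0 to DIV5, 3 members were higher and 5 lower, against 40.2% and 38.2% of 15978 genes. For DIV0 to DIV2 it was 3 higher and 4 lower, against 36.4% and 35%, and for DIV2 to DIV5 1 higher and 7 lower, against 31.1% and 35.7%. Of all genes called from DIV2 to DIV5, 46.56% were higher with TMM and 57.39% with scaling by library size only. The calls of Ring1 from DIV0 to DIV2 (0.28 ± 0.11, adjusted p = 0.0291) and of Cbx7 from DIV2 to DIV5 (-0.35 ± 0.15, adjusted p = 0.0490) did not hold under most alternatives. All 10 dividing-cell markers were called lower from DIV0 to DIV2, and 6 of them higher from DIV2 to DIV5. The summed level of the vascular and meningeal markers was higher at DIV5 than at DIV0, with 7 of the 12 called higher and 4 lower. The part of either list in the changes was not tested.

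**Figure D3:**
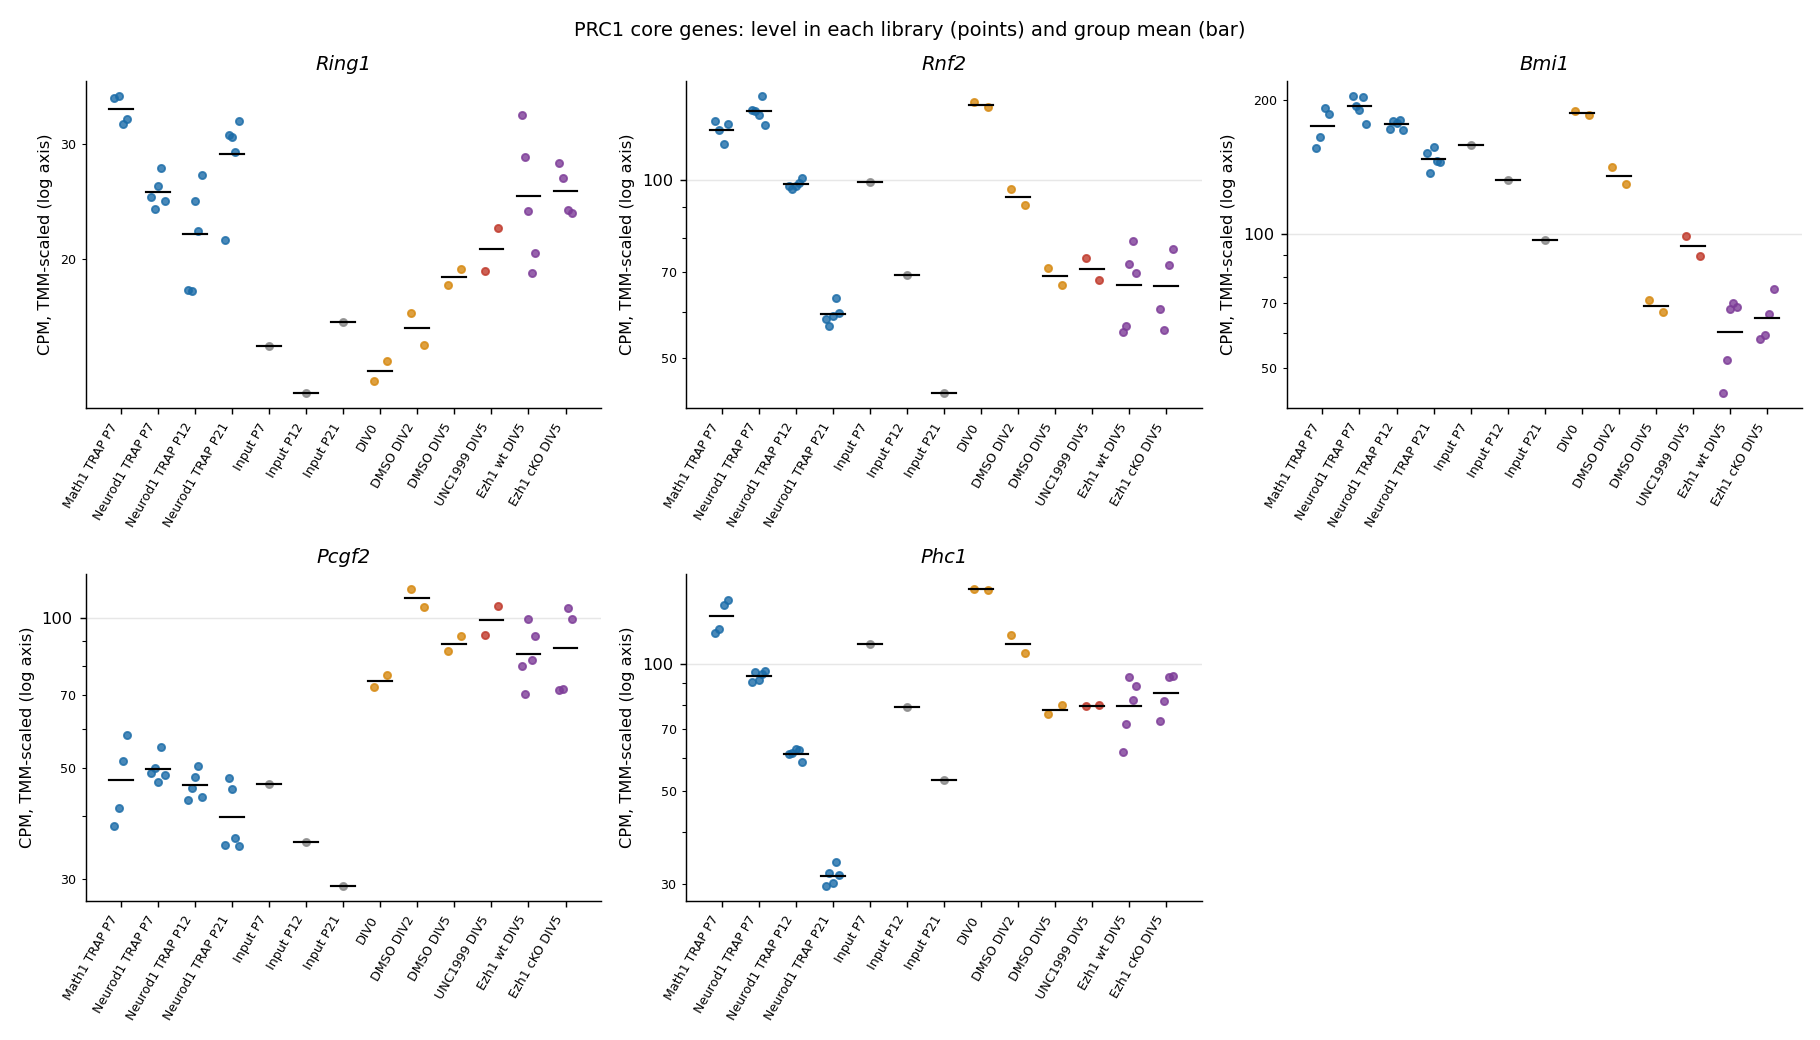
Level of Ring1, Rnf2, Bmi1, Pcgf2 and Phc1 in each library, in TMM-scaled CPM on a log axis with its own range in each panel, for the 13 groups. Points are libraries and bars are group means. Bmi1 falls from 185 and 189 CPM at DIV0 to 66.9 and 71.0 CPM at DIV5 in culture, while Pcgf2 lies higher in every culture group than in the TRAP groups.

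The difference between the change from P7 to P21 and that from DIV0 to DIV5 was tested as 1 contrast. The time spans differ, and TRAP and culture libraries differ in preparation, which cannot be told apart from the setting. Cbx7 differed most, by 4.34 ± 0.18 in log2 (adjusted p = 9.92e-12, 95% interval 3.97 to 4.71), followed by Cbx8 (1.42 ± 0.16, adjusted p = 7.13e-07), Cbx6 (1.22 ± 0.12, adjusted p = 1.40e-07) and Bmi1 (0.95 ± 0.10, adjusted p = 3.52e-07). The rise in the animal was larger, or the fall smaller, for these 4. Phc1 (-0.72 ± 0.09, adjusted p = 2.55e-06), Pcgf2 (-0.67 ± 0.16, adjusted p = 0.00175) and Rnf2 (-0.27 ± 0.09, adjusted p = 0.0138) had the more negative change in the animal. For Cbx2 the difference was -0.32 ± 0.16 (adjusted p = 0.0825, 95% interval -0.65 to 0.01) and for Ring1 -0.37 ± 0.18 (adjusted p = 0.0820), and both were called with scaling by library size only (-0.54 and -0.60). Thus 4 members were called in 1 direction and 3 in the other, against 28% and 38.3% of 16455 genes. The Rnf2 call was lost with DESeq2 (-0.16, adjusted p = 0.0885) and without DIV0 replicate 2 (-0.26, adjusted p = 0.0567).

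**Figure D4:**
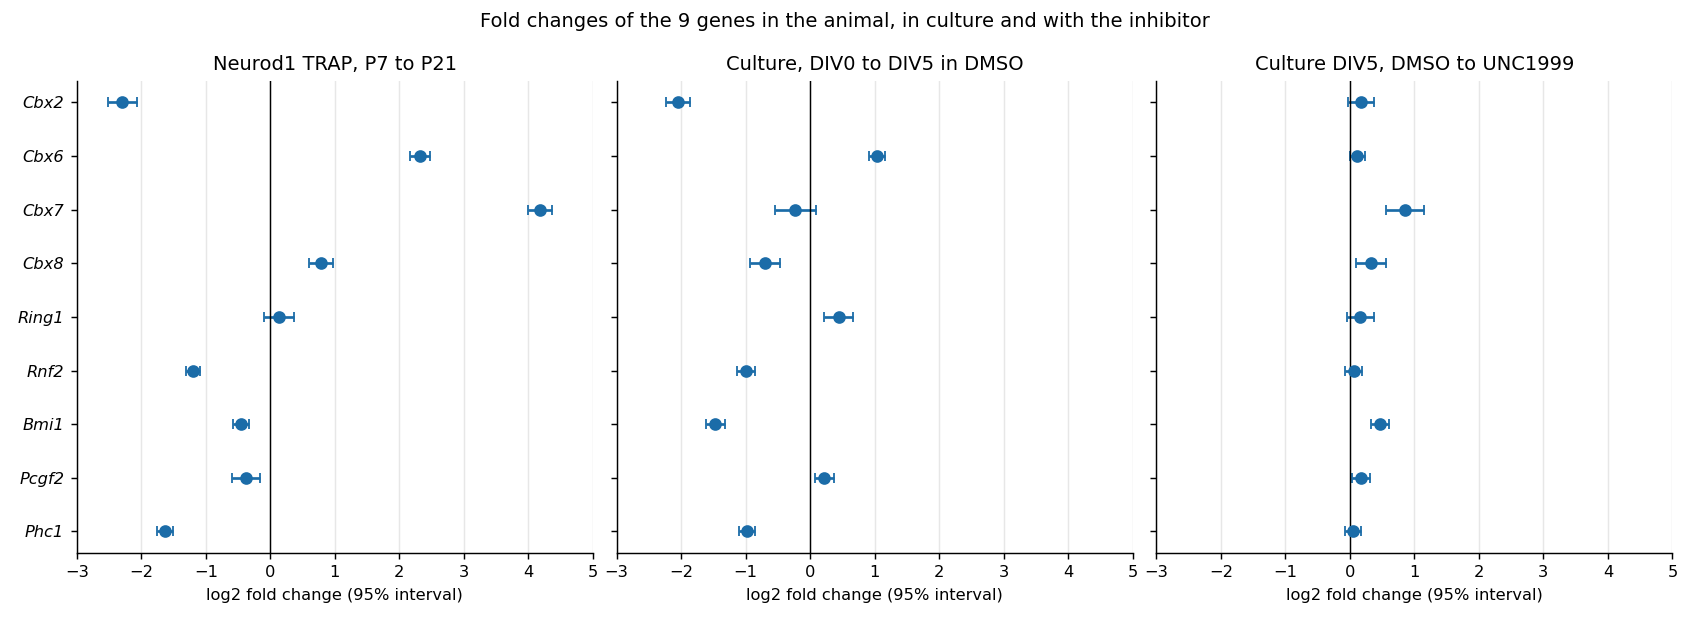
Log2 fold change of the 9 genes with its 95% interval, from P7 to P21 in Neurod1 TRAP, from DIV0 to DIV5 in DMSO, and from DMSO to UNC1999 at DIV5. Cbx7 stands at 4.18 in the animal, -0.23 in culture and 0.85 with the inhibitor.

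UNC1999 addresses how these genes respond to inhibition of EZH2 and EZH1. At DIV5, Cbx7 was at 11.03 and 11.07 CPM with UNC1999 against 5.82 and 6.48 CPM with DMSO, 1.81-fold higher (0.85 ± 0.14 in log2, adjusted p = 0.00115, 95% interval of the fold 1.48 to 2.21). Bmi1 was at 99.1 and 89.4 CPM against 71.0 and 66.9 CPM (0.47 ± 0.07, adjusted p = 6.40e-04). Neither pair of groups overlapped. These 2 were the members called, none was lower, and 6.36% of 15978 genes were called higher and 5.53% lower. Both kept their direction and their call in all 9 alternatives run for this comparison, with Cbx7 at 0.79 to 0.93.

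The UNC1999 level of Cbx7, 11.1 CPM, lay near the Neurod1 TRAP level of P12 (11.06 to 12.14 CPM) and below that of P21 (62.9 to 69.1 CPM). The former is total RNA of a culture and the latter ribosome-bound RNA, so the levels are not like for like, and they were not tested. Bmi1 with UNC1999 lay between its DIV2 level (142 and 129 CPM) and its DIV5 level with DMSO. For the others the fold change was 0.33 ± 0.11 for Cbx8 (adjusted p = 0.0707), 0.17 ± 0.09 for Cbx2 (adjusted p = 0.264), 0.12 ± 0.06 for Cbx6 (adjusted p = 0.212), 0.16 ± 0.10 for Ring1 (adjusted p = 0.315), 0.06 ± 0.06 for Rnf2 (adjusted p = 0.647), 0.04 ± 0.06 for Phc1 (adjusted p = 0.678) and 0.17 ± 0.07 for Pcgf2 (adjusted p = 0.117). The upper end of the 95% interval was 0.56 for Cbx8, 0.37 for Cbx2 and 0.17 for Phc1. Of the 8 mature granule cell markers 7 were called higher with UNC1999 and of the 11 Bergmann glia and astrocyte markers 7 were called lower. The summed levels were 5026 to 5145 CPM against 3542 to 3553 CPM and 2052 to 2264 CPM against 2514 to 2521 CPM, and their part in the changes of Cbx7 and Bmi1 was not tested.

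In the Ezh1 cultures the targeted gene itself was checked first. Ezh1 was at 36.9, 37.9, 42.6, 40.8 and 34.8 CPM in the wt libraries and at 31.2, 32.04, 30.5 and 29.2 CPM in those labelled cKO. The groups did not overlap, but the difference was small (-0.34 ± 0.09 in log2) and had an adjusted p of 0.9999. Its 95% interval, for this gene alone, was -0.55 to -0.13, on the negative side throughout. With the replicate block it was -0.37 ± 0.09, with an edgeR p of 0.00254 unadjusted and 0.498 adjusted. The labels do not say which exons are floxed, so RNA outside the deleted part would still be counted. None of the 9 members was called, and 0% of 14461 genes were called higher and 0% lower. Here edgeR left 169 genes at an unadjusted p under 0.05, and DESeq2 called 1. With the replicate block, which left out wt replicate 5, 0 genes were called and 1474 had an unadjusted p under 0.05. That number without the block was 127 without wt replicate 5, 722 without wt replicate 2 and 81 without wt replicate 4. It was 106 without cKO replicate 1 and 52 without cKO replicate 2, again with 0 called.

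Several members split the Ezh1 libraries by replicate number rather than genotype. Replicates 1 and 2 of both genotypes stood apart from replicates 3 to 5. Cbx6 was at 171 to 201 CPM in the 4 libraries of replicates 1 and 2 and at 84.8 to 98.1 CPM in the other 5. Ring1 was higher in the former, at 26.6 to 33.2 CPM against 19.1 to 23.8 CPM. Cbx2 (7.63 to 9.15 CPM against 11 CPM in wt replicate 5 and 11.17 to 12.05 CPM in the others), Bmi1 (43.9 to 59.5 CPM against 66.1 to 75.2 CPM), Rnf2 (55.3 to 60.7 CPM against 69.6 to 79.0 CPM) and Pcgf2 (70.3 to 80.03 CPM against 82.4 to 105 CPM) were lower in them. Npcd, which shares exon bases with Cbx6, was at 0 in all 5 libraries of replicates 3 to 5 and was counted in all 4 of the others. Besides, 1041 genes are blank in the Ezh1 libraries. Whether all libraries were counted against the same annotation is not given in the sources used here, so levels, shares and ranks of the Ezh1 groups beside other groups carry that limit. The part of read assignment in the level of Cbx6 was not tested, and Ring1, Bmi1 and Rnf2 also split by replicate number.

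With the replicate number as a block, Cbx7 was at 0.33 ± 0.15 in cKO against wt (adjusted p = 0.4998), Bmi1 at 0.15 ± 0.09 (adjusted p = 0.541), Phc1 at 0.14 ± 0.08 (adjusted p = 0.520) and Cbx6 at -0.04 ± 0.09 (adjusted p = 0.878). In the libraries Cbx7 was at 5.01, 6.94, 4.94, 3.63 and 5.03 CPM with wt Ezh1 and at 6.98, 7.53, 5.58 and 5.61 CPM with the labelled cKO, which overlap. Without the block its 95% interval of the fold was 0.91 to 1.72. Astrocyte markers summed to 2736 to 12210 CPM in wt and 5208 to 12350 CPM in cKO libraries, and their part was not tested.

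Other PRC1 genes were taken as a fixed list. Of 4 further canonical genes, 1 was higher and 3 lower at P21 than at P7, where 38.9% of all genes were called higher and 42.5% lower. Phc2 rose from 458 ± 23 CPM to 586 ± 27 CPM (0.30 ± 0.05, adjusted p = 1.49e-05), in contrast to Phc1, and Phc3 was lower at P21 (-0.39 ± 0.12, adjusted p = 0.00657). Scmh1 (-0.73 ± 0.07, adjusted p = 5.65e-09) and Scml2, at 6.58 ± 1.11 CPM at P7 and 0.237 ± 0.126 CPM at P21 (-4.82 ± 0.24, adjusted p = 2.19e-14), both genes for sex comb proteins that join PRC1, fell. Of the 4, 0 were higher and 3 lower between DIV0 and DIV5, against 40.2% and 38.2% of all genes. With UNC1999, Phc2 (0.16 ± 0.05, adjusted p = 0.0428) and Scmh1 (0.20 ± 0.05, adjusted p = 0.0271) were higher and none lower, against 6.36% and 5.53% of all genes.

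The variant PRC1 complexes hold other PCGF proteins and do not use a CBX reader. Of 15 of their genes 4 were higher and 8 lower at P21 than at P7, against 38.9% and 42.5% of all genes, with a median of -0.25 against -0.05 over all genes. The smallest adjusted p belonged to Fbrsl1, higher by 1.199 ± 0.055 (adjusted p = 7.21e-15), then Auts2, with a log2 fold change of -1.45 ± 0.07 (adjusted p = 2.22e-14), and Pcgf1, higher by 1.09 ± 0.09 (adjusted p = 1.94e-10). AUTS2 and FBRSL1 are related proteins of a variant complex. In culture from DIV0 to DIV5, 0 of the 15 were higher and 9 lower, against 40.2% and 38.2% of all genes, with a median of -0.37 against 0.04.

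The HP1 genes Cbx1, Cbx3 and Cbx5 share the CBX name but bind H3K9 methylation. From P7 to P21, where 42.5% of all genes were called lower, all 3 fell, with log2 fold changes of -2.12 ± 0.12 for Cbx5 (adjusted p = 2.34e-13), -0.76 ± 0.10 for Cbx1 (adjusted p = 2.21e-07) and -0.72 ± 0.05 for Cbx3 (adjusted p = 4.92e-11). From DIV0 to DIV5 all 3 fell as well, with -1.71 ± 0.06, -1.62 ± 0.06 and -1.55 ± 0.05. With UNC1999 Cbx1 was higher (0.21 ± 0.06, adjusted p = 0.0481), and the others were not called.

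The genes most like each reader over the 10 groups with at least 2 libraries were found by Pearson's r of mean log2 levels among 12754 genes. Each r is a description over 10 points that share libraries with the comparisons above. Cbx7 was most like Tob2 (r = 0.982), Ogfod1 and Fcer2a. Fcer2a passed the minimum level only through Neurod1 P21 (5.445 CPM), where Cbx7 is highest, and was at 1.016 CPM at Neurod1 P12 and lower elsewhere. Genes most like Cbx6 included Tmem141 (r = 0.995) and Dgkz. Cbx2 was most like Eml4 (r = 0.996), Cenpl and Cdc25b, and Cbx8 was most like Carmil2 (r = 0.985), Gdap2 and Josd1. Among the members, Cbx2 and Rnf2 were most alike (r = 0.872) and Cbx6 and Phc1 most opposed (r = -0.909).

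In the order of the groups by level, groups from the animal stood at both ends for Cbx7 and the cultures between them. This order mixes ribosome-bound RNA of the TRAP groups with total RNA of the inputs and cultures. Its highest mean was at Neurod1 P21 (66.0 CPM), then the input of P21 (43.8 CPM), then the input of P12 (12.9 CPM) and Neurod1 P12 (11.5 CPM). Neurod1 P12 and UNC1999 DIV5 (11.1 CPM) overlapped, and the remaining groups lay between 7.28 CPM at DMSO DIV2 and 3.51 CPM at Neurod1 P7. For Cbx6 the highest mean was at Neurod1 P21 (1042 CPM) and the lowest at DIV0 (65.4 CPM). For Cbx2 the highest means were at Math1 TRAP (83.3 CPM) and DIV0 (47.7 CPM) and the lowest at Neurod1 P21 (7.06 CPM).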

How the data were processed

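The deposited values are whole-number estimated counts per Entrez gene for 24100 genes in 39 libraries. Salmon 0.8.2 and the build mm10 are listed in the submitters' processing notes, and how each was used is not given in the sources used here. Libraries were made from poly(A) RNA and read from 1 end, per the labels' protocols. Of the genes, 24045 were matched to a symbol by RefSeq (GRCm38.p6), and the 55 unmatched held 0.0361% of counts on average. In the Ezh1 cultures 1041 genes are blank and were left out of that fit, and whether these libraries were counted against the same annotation is not given in the sources used here; they hold 2.94% to 3.67% of counts elsewhere. Hba-a1 and Hbb-bt were not analysed here.

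Counts were tested with edgeR 4.0.16 in R 4.3.3: TMM scaling, filterByExpr (minimum count 10, minimum total 15), robust quasi-likelihood fits, Benjamini-Hochberg adjustment over all genes tested and an adjusted p under 0.05, two-sided. The 19 TRAP libraries other than inputs, the 8 cultures without Cre and the 9 Ezh1 libraries each shared 1 fit. The input comparison used 18 libraries with age as a factor, and the contrast of animal and culture 14. DESeq2 1.42.0, scaling by library size only, no filter, compared groups alone, each library left out and a replicate block were alternatives. The fits were also run on simulated counts with the same spread set for all genes, which does not cover the spread of the real libraries. Ratios and likeness used log2(CPM + 0.5). For likeness a gene needed a mean of at least 5 CPM in at least 1 of the 10 groups. Gene positions are from RefSeq, and strands, exons and transcript lengths from GENCODE vM21. In the Ezh1 cultures same-numbered wt and cKO libraries deviated together (r = 0.861, 0.9, 0.855 and 0.821 over genes). The correlation of differently numbered libraries was not computed. Replicates 1 and 2 stood apart from replicates 3 to 5, so these r cannot tell pairing by number from that split. No 2 libraries held identical values. The members and lists were chosen with earlier results of these data known. All 9 members are named, together with the canonical PRC1 and HP1 genes of the lists, the 3 variant PRC1 genes with the smallest adjusted p from P7 to P21, and genes among the 3 most like each Cbx member. Some items are not reported here.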

Additional observations from a re-analysis of the deposited data

Results flagged for a closer look

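In 54 sets of 4 or 5 libraries of 1 gene and group, 2 had a library far from the others by Dixon's criterion, which chance gives in about 1 of 20 sets. Cbx7 was at 4.399 CPM in Math1 TRAP replicate 3 and at 3.653 to 3.737 CPM in the other 3. Cbx8 was at 11.74 CPM in Ezh1 wt replicate 3 and at 8.217 to 9.123 CPM in the other 4.

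The change from P7 to P21 in Neurod1 TRAP differed from the change from DIV0 to DIV5 in culture for 7 members, by edgeR's test of that difference. On the log2 scale the animal minus culture difference was 4.3391 for Cbx7, 1.4242 for Cbx8, 1.2197 for Cbx6 and 0.9547 for Bmi1. It was -0.7195 for Phc1, -0.6674 for Pcgf2 and -0.2698 for Rnf2. Cbx8 rose in the animal and fell in culture, the reverse of Pcgf2, whose rise in culture was lost without DIV0 replicate 1 or DMSO DIV5 replicate 2.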

How the results depend on the processing

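Of 1350 log2 fold changes of the members under alternatives, 1239 kept their direction and side of the threshold, 38 lost a call, 25 gained one and 48 changed sign. The count of members called from DIV2 to DIV5 was 8 in the fit of 8 libraries. It was 5 with the replicate block, which used only the 4 libraries compared, and 5 to 7 with 1 library left out. The count of all genes called for UNC1999, 1899, was 955 with DESeq2, 3035 with the replicate block and 932 to 1297 with 1 library left out. This block too used only the 4 libraries compared, which gave 933 genes higher and 1198 lower without a block. For Ezh1, DESeq2 called 1 gene where edgeR called 0. Sign changes were all in values not called, except Bmi1 (-0.002) and Pcgf2 (-0.1299) against input with scaling by library size only. With that scaling Ring1 from P7 to P21 was -0.0411. Pcgf2 from Math1 to Neurod1 TRAP was -0.1579 with Math1 replicates 3 and 4 alone and -0.0397 to 0.1623 with 1 library left out. Cbx7 against input was 0.0423 with DESeq2, 0.0739 with no filter and -0.2937 to 0.1674 with 1 library left out. With 1 library left out, Cbx7 from DIV0 to DIV2 ran from -0.118 to 0.1824 and Rnf2 with UNC1999 from -0.0139 to 0.1304. In the Ezh1 comparison the replicate block gave -0.0389 for Cbx6, -0.0313 for Ring1 and 0.0023 for Rnf2. Leaving out 1 Ezh1 library gave -0.0523 to 0.153 for Cbx2, -0.1193 to 0.2394 for Cbx6, -0.1311 to 0.0546 for Cbx8, -0.0751 to 0.1182 for Pcgf2, -0.0643 to 0.1506 for Ring1 and -0.0909 to 0.0674 for Rnf2. The causes were not tested. Scaling by library size only moved the median of all genes from -0.05 to -0.224 from P7 to P21 and from 0.041 to 0.154 from DIV0 to DIV5. Outside the Ezh1 cultures r of same-numbered libraries ran from -0.395 to 0.259, so pairing by number was not shown. With 2 libraries in each group both pairs give the same r, 0.107 for DMSO and UNC1999, which cannot decide pairing. From DIV2 to DIV5 same-numbered deviations had r = -0.206. A crossed replicate block, added after the data were seen, gave 5510 genes higher and 5281 lower, against 4594 and 4049 with the replicate block. Without a block the same 4 libraries gave 5088 and 4707, and the main fit of 8 libraries gave 4966 and 5699. Low counts limit Cbx7 at P7 and Cbx2 at P21.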
